A study of Mus musculus with 60 samples.

Results

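The habenula and the thalamus lie beneath the dorsal hippocampus, and RNA of 9 of their marker genes was measured here in tissue punched from the dentate gyrus (DG). The habenula markers were *Gpr151*, *Nwd2* and *Pou4f1*, and the thalamus markers were *Gbx2*, *Prkcd*, *Ramp3*, *Slc17a6*, *Zic1* and *Ntng1*. These 9 genes were taken by name from the 46480 genes in the tables, with no measured value in the rule. The names were chosen with earlier results of these data known, so they are not a choice independent of the data. The habenula passes signals from the forebrain to midbrain neurons that release dopamine and serotonin, and its medial part is set apart by the transcription factor POU4F1. The thalamus relays sensory and motor signals to the cortex through glutamatergic neurons that load their vesicles with the transporter encoded by *Slc17a6*. The principal cell of the DG is the granule cell, a glutamatergic neuron marked by *Prox1*.

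RNA was sequenced from the dorsal and the ventral DG of male C57BL6J mice raised in standard housing (SH) or in an enriched environment (EE). Mice were weaned at day 22, spent 8 weeks in either housing and were collected at 80 days of age. Each region in each housing made 1 of the 4 groups with 5 samples per group, and each sample held tissue punched from several mice. Dorsal and ventral samples with one replicate number were taken to be a pool of the same mice. Dorsal DG was punched from coronal slices and ventral DG from horizontal slices, so region and plane of section cannot be told apart.

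SH replicate 3 was left out of group means and tests in both regions. The study left out 1 SH sample for *Xist*, without a replicate number, and SH replicate 3 had 789 *Xist* counts in dorsal and 308 in ventral DG against 0 to 16 counts in the other 18 samples. This left 9 dorsal and 9 ventral samples (4 SH and 5 EE each), with 22919364 to 28301861 fragments counted on genes. In bulk tissue, fewer cells of a type and less RNA per cell cannot be told apart. As a check of the tissue, the dorsal samples had 242.5 ± 19.8 CPM of *Prox1* and the ventral samples 126.6 ± 15.1 CPM (SD, n = 9 each), where CPM is counts scaled to a library of 1000000 after TMM normalization. Of 7 granule cell markers, 6 were higher in dorsal DG and 0 were lower, where 15.0% of all genes tested were higher and 15.9% were lower. Among these was *Lct*, which the study lists as dorsally enriched in granule cells, so the list does not measure granule cell content alone. All 4 ependyma and all 8 choroid plexus markers were lower in dorsal DG, the latter with a summed level of 24.9 to 212 CPM in dorsal samples against 391 to 1431 CPM in ventral ones.

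All 9 genes passed the count filter (over 10 counts in at least 2 samples). *Gpr151* passed it through 6 dorsal samples and *Pou4f1* through 3 dorsal samples, each with 0 ventral samples over the limit, so these genes could be tested only because of their dorsal counts. *Gbx2* passed through 3 dorsal and 3 ventral samples, and each of the other 6 genes exceeded the limit in all 18 samples. A gene counted as changed with an adjusted p under 0.05 and a fold change over 20%.

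Between the regions, 7 of the 9 genes were higher in dorsal DG and 0 were lower, where 15.0% of all 17040 genes tested were higher in dorsal DG and 15.9% were lower. *Gpr151* and *Pou4f1*, tested only because of their dorsal counts, could only be called higher if they were called, and of the remaining 7 genes 5 were higher. The genes that passed were *Gpr151*, *Pou4f1*, *Prkcd*, *Ramp3*, *Slc17a6*, *Zic1* and *Ntng1*. In SH alone 6 of 9 were higher and in EE alone 6 of 9 were higher, against 14.1% of all genes tested in either housing. These counts include *Pou4f1* in SH, and *Gpr151* and *Pou4f1* in EE. Of the 6 thalamus markers 5 were higher in SH and 4 in EE, and *Nwd2* passed in neither. Test values are from edgeR's quasi-likelihood test on both housings with Benjamini-Hochberg adjustment, and a log2 fold change is the mean over the housings.

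**Figure D1:**
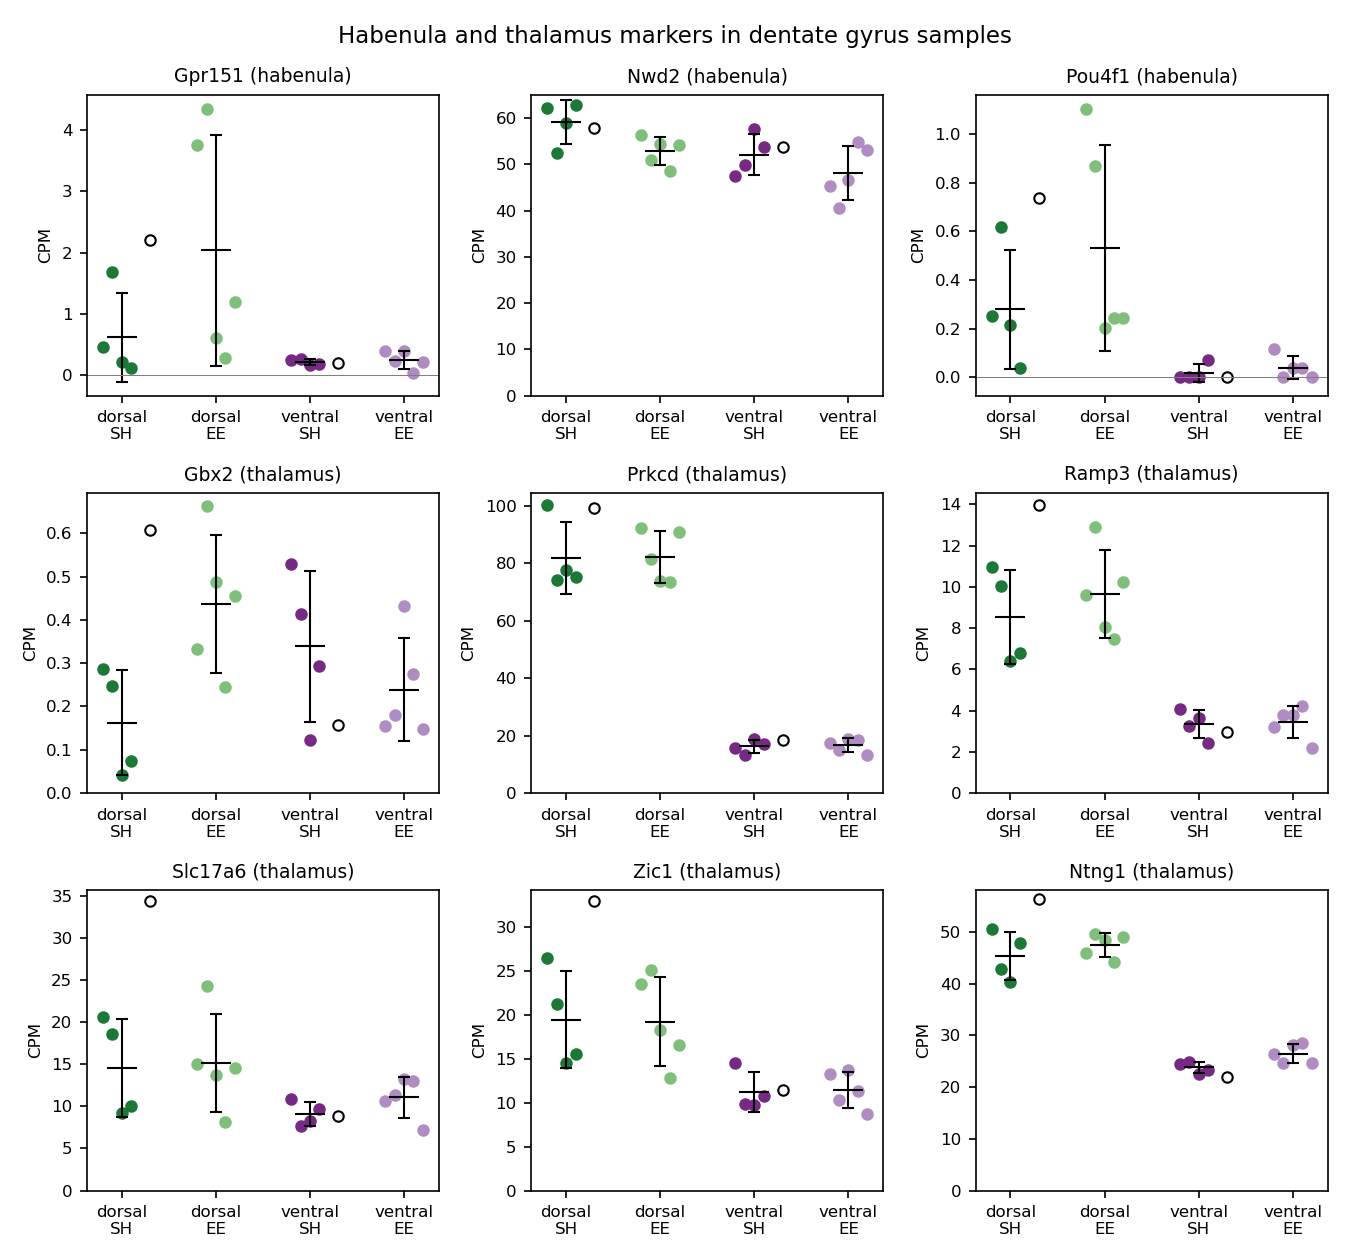
Level of each marker in each sample, in CPM on a linear axis, for dorsal and ventral DG in SH and EE. Filled points are samples in replicate order, black lines are means with SD (n = 4 for SH, 5 for EE), and open points are SH replicate 3, which is in neither. The regions do not overlap for 3 genes (*Prkcd*, *Ramp3* and *Ntng1*), and *Gpr151* spans 0.112 to 4.35 CPM within the dorsal samples.

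*Gpr151* encodes an orphan G protein-coupled receptor of habenula neurons. In dorsal EE replicates 1 to 5 it had 3.76, 4.35, 0.610, 0.285 and 1.19 CPM, from 102, 105, 15, 7 and 34 counts. In dorsal SH replicates 1, 2, 4 and 5 it had 0.466, 1.69, 0.214 and 0.112 CPM, from 13, 41, 5 and 3 counts. The 9 ventral samples had 0.0394 to 0.392 CPM with a median of 0.226, from 1 to 10 counts. EE replicates 1 and 2 were thus above the other 7 dorsal samples, and 6 dorsal samples were above each ventral sample while 3 lay within the ventral range. The log2 fold change was 2.23 (SE 0.60, adjusted p = 0.00176 by edgeR's quasi-likelihood test), and dorsal exceeded ventral in 8 of 9 pools. Summed counts were 325 in dorsal and 55 in ventral DG, a ratio of 5.94 after library size (95% exact binomial interval 4.45 to 8.06, which covers counting error only).

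The region difference of *Gpr151* was 2.98 in EE (SE 0.68, adjusted p = 0.00113 by edgeR) and 1.48 in SH (SE 0.96, adjusted p = 0.227 by edgeR). With the pool as a replicate block the SH difference was 1.42 and passed (adjusted p = 0.0292 by edgeR), and with SH replicate 3 included it was 2.09 and passed (adjusted p = 0.0422 by edgeR). Without SH replicate 2 it was 0.42 and did not pass (adjusted p = 0.818 by edgeR). Without EE replicates 1 and 2, chosen after their values were seen, the EE difference was 1.69 and no longer passed (adjusted p = 0.0932 by edgeR).

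*Pou4f1*, the transcription factor of medial habenula neurons, was the lowest of the 9 genes in ventral DG. Its 5 dorsal EE samples had 30, 21, 5, 6 and 7 counts (1.10, 0.870, 0.203, 0.245 and 0.245 CPM), and its dorsal SH samples 1, 2, 4 and 5 had 7, 15, 5 and 1 counts (0.251, 0.617, 0.214 and 0.0372 CPM). In ventral DG, 5 of the 9 samples had 0 counts and the highest had 3. The 3 dorsal samples with the most *Pou4f1* were the 3 with the most *Gpr151* (EE replicates 1 and 2 and SH replicate 2), and 8 dorsal samples were above each ventral sample. The log2 fold change was 3.58 (SE 0.69, adjusted p = 0.000269 by edgeR's quasi-likelihood test), with dorsal higher in 8 of 9 pools. Summed counts were 97 against 7, a ratio of 13.9 (95% exact binomial interval 6.51 to 35.6). The SH difference was 3.57 (adjusted p = 0.0153 by edgeR), from 28 counts against 2, and it did not pass without SH replicate 1 (adjusted p = 0.0648) or SH replicate 2 (adjusted p = 0.143). SH replicate 5 held both ventral SH counts, and without it the fitted value over both housings was 4.91 and depended on the prior count. Without SH replicate 2 it was 3.06. The EE difference was 3.60 (adjusted p = 0.000708 by edgeR).

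*Nwd2*, which encodes a protein with NACHT and WD repeat domains, did not pass. It had 48.6 to 62.8 CPM with a median of 54.4 in the 9 dorsal samples, and 40.6 to 57.6 CPM with a median of 49.7 in the 9 ventral samples. The ranges overlapped over most of their length, with 3 dorsal samples above each ventral sample. Dorsal exceeded ventral by 0.16 on the log2 scale (SE 0.05, adjusted p = 0.0507 by edgeR's quasi-likelihood test). Thus the habenula gene with the most reads was nearly as high in ventral as in dorsal DG, unlike *Gpr151* and *Pou4f1*.

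Among the thalamus markers, *Prkcd*, which encodes protein kinase C delta, had the largest region difference. Dorsal EE replicates 1 to 5 had 92.2, 81.5, 73.7, 73.4 and 90.8 CPM, and dorsal SH replicates 1, 2, 4 and 5 had 100.3, 74.1, 77.6 and 75.2 CPM. The ventral samples had 13.2 to 18.9 CPM with a median of 17.0. Each dorsal sample was above each ventral sample. The coefficient of variation was 12.1% in dorsal and 13.9% in ventral DG, where the medians over all genes tested were 8.37% and 9.16%. The log2 fold change was 2.32 (SE 0.08, adjusted p = 1.99e-15 by edgeR's quasi-likelihood test), at 2.34 in SH and 2.31 in EE.

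*Ramp3* encodes a membrane protein that modifies the receptors for calcitonin-family peptides. Dorsal EE replicates 1 to 5 had 9.61, 12.9, 8.05, 7.46 and 10.2 CPM, and dorsal SH replicates 1, 2, 4 and 5 had 10.9, 10.0, 6.41 and 6.78 CPM. Ventral samples had 2.19 to 4.21 CPM with a median of 3.65, again below each dorsal sample. The regions differed by 1.42 on the log2 scale (SE 0.14, adjusted p = 4.33e-08 by edgeR's quasi-likelihood test).

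*Ntng1* encodes netrin-G1, an axonal adhesion protein of thalamic projections. It had 44.2 to 49.6 CPM in dorsal EE, 40.3 to 50.6 CPM in dorsal SH and 22.6 to 28.5 CPM in the ventral samples. The log2 fold change was 0.89 (SE 0.05, adjusted p = 1.15e-12 by edgeR's quasi-likelihood test), with no overlap between regions. *Prkcd*, *Ramp3* and *Ntng1* were the 3 of 9 genes whose regions did not overlap, against 9.51% of all genes tested with each dorsal sample above each ventral one.

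*Zic1* encodes a zinc finger transcription factor. Dorsal EE replicates 1 to 5 had 23.5, 25.1, 18.3, 12.8 and 16.6 CPM, and dorsal SH replicates 1, 2, 4 and 5 had 26.5, 21.3, 14.5 and 15.6 CPM, against 8.78 to 14.5 CPM with a median of 10.8 in ventral DG. Only EE replicate 4 lay within the ventral range. Its log2 fold change was 0.77 (SE 0.13, adjusted p = 0.000164 by edgeR's quasi-likelihood test). Without EE replicates 1 and 2 the EE difference fell from 0.74 to 0.50 and no longer passed (adjusted p = 0.0645 by edgeR). Dorsal exceeded ventral in all 9 pools for *Zic1*, *Prkcd*, *Ramp3* and *Ntng1*, as it did for 3416 of all 17040 genes tested.

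*Slc17a6*, the vesicular glutamate transporter VGLUT2 of thalamic and habenular projection neurons, was the weakest of the genes that passed. Dorsal EE replicates 1 to 5 had 15.0, 24.4, 13.7, 8.20 and 14.6 CPM, and dorsal SH replicates 1, 2, 4 and 5 had 20.6, 18.6, 9.18 and 10.0 CPM. Ventral samples had 7.19 to 13.3 CPM with a median of 10.7. SH replicates 4 and 5 and EE replicate 4 lay within the ventral range, and the other 6 dorsal samples lay above it. Its log2 fold change was 0.57 (SE 0.18, adjusted p = 0.0300 by edgeR's quasi-likelihood test). It was 0.68 in SH (adjusted p = 0.0437) and 0.45 in EE (adjusted p = 0.118). The call over both housings was lost without SH replicate 1 (adjusted p = 0.0733 by edgeR), SH replicate 2 (0.117), EE replicate 1 (0.0589) or EE replicate 5 (0.0515), and also with DESeq2 (adjusted p = 0.0584).

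*Gbx2*, a homeobox transcription factor of the developing thalamus, did not pass and had few counts. Its 73 dorsal and 67 ventral counts gave a ratio of 1.10 (95% exact binomial interval 0.775 to 1.55). Levels were 0.245 to 0.663 CPM in dorsal EE, 0.0427 to 0.287 CPM in dorsal SH, 0.148 to 0.431 CPM in ventral EE and 0.122 to 0.530 CPM in ventral SH. The region difference was 0.85 in EE (SE 0.41, adjusted p = 0.0896 by edgeR) and -1.04 in SH (SE 0.51, adjusted p = 0.106 by edgeR). With the pool as a replicate block both passed, at 0.85 (adjusted p = 0.0377 by edgeR) and -1.05 (adjusted p = 0.0461 by edgeR). The test of their difference gave 1.89 (SE 0.65, adjusted p = 1.00 by edgeR).

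**Figure D2:**
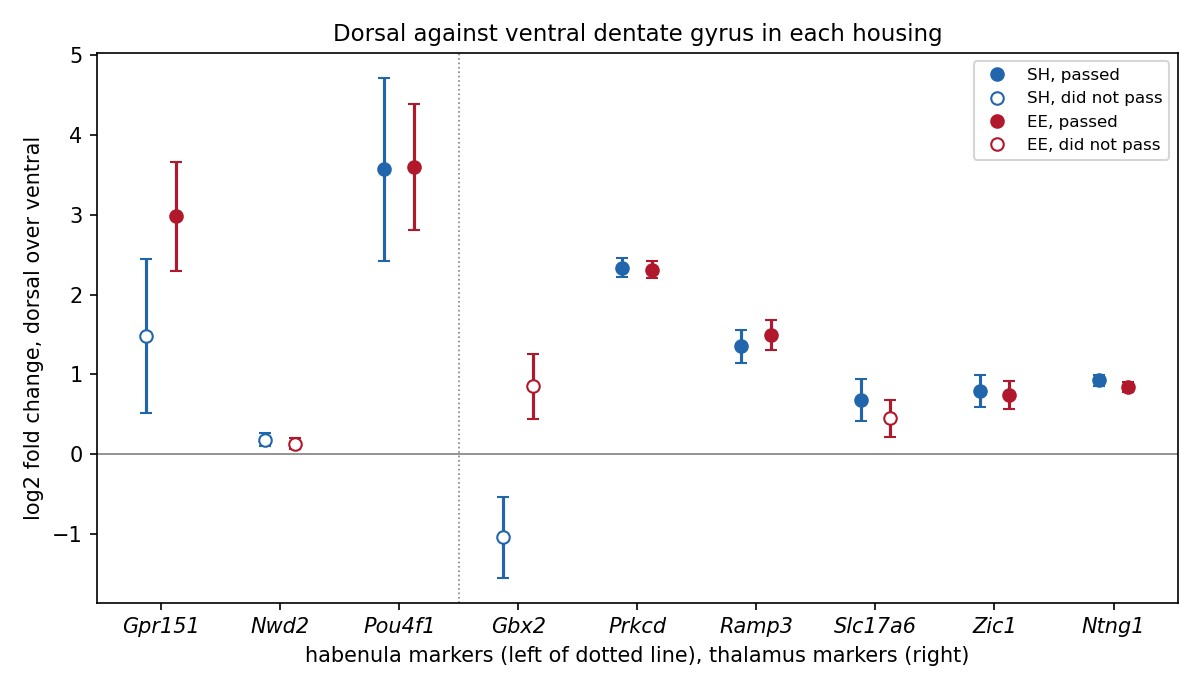
Log2 fold change of dorsal over ventral DG for each marker, with its SE, in SH (blue, n = 4 per region) and EE (red, n = 5 per region). Filled points passed an adjusted p under 0.05 and a fold change over 20%. *Prkcd* was at 2.34 in SH and 2.31 in EE, and *Gbx2* lay on opposite sides of 0 in the 2 housings without passing in either.

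Per transcript length, the dorsal order of the genes was *Prkcd* at 15.3 TPM (transcripts scaled to 1000000 per sample), *Ntng1* at 6.65, *Nwd2* at 4.48, *Ramp3* at 4.03, *Zic1* at 2.08, *Slc17a6* at 1.66, *Gpr151* at 0.371, *Gbx2* at 0.107 and *Pou4f1* at 0.0656 TPM. In ventral DG the order began with *Nwd2* at 3.76, *Ntng1* at 3.03 and *Prkcd* at 2.72 TPM and again ended with *Pou4f1*, at 0.00222 TPM. Thus *Prkcd* led in dorsal DG and stood behind *Nwd2* and *Ntng1* in ventral DG. SDs over samples in each group show that neighbours in these orders did not always differ beyond their spread. In dorsal EE, *Nwd2* at 3.96 ± 0.58 TPM and *Ramp3* at 3.93 ± 0.81 TPM (SD, n = 5) overlapped, as did *Zic1* at 1.89 ± 0.53 and *Slc17a6* at 1.54 ± 0.51 TPM. *Prkcd* at 14.1 ± 2.92 and *Ntng1* at 6.25 ± 0.80 TPM were separate. CPM and not TPM was used for the differences between regions and housings, because the 10 highest genes held 66.1 to 78.2% of all TPM and this share differed between samples.

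The comparison of EE with SH asked whether enrichment moved these genes. In dorsal DG 0 of the 9 genes passed, as did 0 of 9 in ventral DG, where 0.634% and 0.241% of all genes tested passed. For all 9 genes the EE and SH samples of each region overlapped, while they did not overlap for 3.99% of all genes tested in dorsal and 2.45% in ventral DG. In dorsal DG 3 genes had an unadjusted p under 0.05 by edgeR's quasi-likelihood test, and in ventral DG 1 had. Of all 17040 genes tested, 1502 in dorsal and 1292 in ventral DG had such a p. The largest dorsal value was that of *Gpr151*, at 2.04 ± 1.88 CPM in EE (SD, n = 5) and 0.619 ± 0.727 CPM in SH (SD, n = 4), a log2 fold change of 1.74 (SE 0.62, adjusted p = 0.322 by edgeR). Leaving out 1 pool gave 1.29 (without EE replicate 2) to 2.91 (without SH replicate 2), and leaving out EE replicates 1 and 2 gave 0.23, none of which passed. Without the count filter this value had an adjusted p of 0.0477 by edgeR and passed. *Gbx2* was at 0.436 ± 0.160 CPM in dorsal EE and 0.163 ± 0.122 CPM in dorsal SH, with a log2 fold change of 1.37 (SE 0.47, adjusted p = 0.282 by edgeR). *Nwd2*, the third gene with an unadjusted p under 0.05, went the other way at -0.16 (adjusted p = 0.563 by edgeR). *Pou4f1* was not among them and gave 0.95 (SE 0.56, adjusted p = 0.682 by edgeR), or 0.48 to 1.66 when 1 pool was left out. The test for a difference of the EE effect between regions passed for 0 of the 9 genes, and for 0.00587% of all genes tested. By edgeR 1 of the 9 had an unadjusted p under 0.05, as did 553 of all 17040 genes tested.

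The spread between dorsal samples separated the genes into those that were even and those that were not. The highest dorsal sample exceeded the lowest 39.0-fold for *Gpr151*, 29.7-fold for *Pou4f1*, 15.5-fold for *Gbx2*, 2.97-fold for *Slc17a6*, 2.07-fold for *Zic1* and 2.01-fold for *Ramp3*. The range was 1.37-fold for *Prkcd*, 1.29-fold for *Nwd2* and 1.25-fold for *Ntng1*, where the median of all genes tested was 1.29-fold. The coefficient of variation gave the same order, from 113% for *Gpr151* to 12.1% for *Prkcd* and 7.43% for *Ntng1*, with a median of 8.37% over all genes. The uneven genes also had a coefficient of variation above the median of all genes tested in ventral samples. In ventral DG it was 46.3% for *Gpr151*, 140% for *Pou4f1*, 51.6% for *Gbx2*, 21.6% for *Slc17a6*, 17.7% for *Zic1* and 20.6% for *Ramp3*. It was 13.9% for *Prkcd*, 10.8% for *Nwd2* and 7.87% for *Ntng1*, with a median of 9.16% over all genes. Few counts widen the spread for *Gpr151*, *Pou4f1* and *Gbx2*. In ventral DG *Gpr151* had 55 and *Pou4f1* 7 summed counts, against 325 and 97 in dorsal DG. Whether the ventral spread of these genes exceeds counting error was not tested. The biological coefficient of variation fitted by edgeR sets counting error aside. It is fitted within the 4 groups over the samples of both regions, so it is not a dorsal value alone. It was 0.66 for *Gpr151* against 0.14 for genes of its abundance, and 0.54 against 0.15 for *Pou4f1*. It was 0.25 against 0.073 for *Slc17a6*, 0.11 against 0.061 for *Prkcd* and 0.061 against 0.062 for *Ntng1*.

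The uneven genes varied together over the 9 dorsal samples, given here as Pearson's r of log2 CPM after subtraction of the housing means and as a description only. The 9 points share their libraries, depth and normalization. *Gpr151* had r = 0.91 with *Pou4f1*, 0.82 with *Slc17a6*, 0.81 with *Zic1*, 0.80 with *Ramp3* and 0.63 with *Gbx2*, but -0.18 with *Nwd2*. *Pou4f1* followed the thalamus genes less closely, with r = 0.69 for *Zic1*, 0.64 for *Ramp3*, 0.63 for *Slc17a6* and 0.43 for *Gbx2*. *Slc17a6* had r = 0.96 with *Ramp3*, 0.93 with *Zic1* and 0.93 with *Gbx2*. Its r was lower with *Ntng1* (0.55) and *Prkcd* (0.49), and -0.02 with *Nwd2*. SH replicates 1 and 2 and EE replicate 2 were above their housing mean for *Gpr151*, *Gbx2*, *Ramp3*, *Slc17a6* and *Zic1*, and SH replicates 4 and 5 and EE replicate 4 were below it.

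Single samples differed in which marker was high. *Slc17a6* deviated by 0.59 in SH replicate 1 and 0.44 in SH replicate 2 on the log2 scale, whereas *Gpr151* deviated by 0.18 and 1.88 in these samples. In EE replicate 1, *Gpr151* deviated by 1.45, *Zic1* by 0.33 and *Slc17a6* by 0.07.

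The summed CPM of the 3 habenula markers and of the 6 thalamus markers had r = 0.41 and Spearman's rho = 0.37 over the 9 dorsal samples, and r = 0.44 without the 2 samples farthest from the median. The value moved with the scale and the samples, to r = 0.90 on summed TPM, 0.55 after subtraction of the housing means, 0.15 without EE replicate 4 and 0.63 without SH replicate 5. These sums were mostly 1 gene each, as *Nwd2* made up 90.7 to 99.8% of the habenula sum and *Prkcd* 42.0 to 52.4% of the thalamus sum. With *Gpr151* and *Pou4f1* against *Ramp3*, *Slc17a6* and *Zic1*, chosen after the values were seen, r was 0.67 and rho 0.75, and r was 0.54 without the 2 farthest samples.

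**Figure D3:**
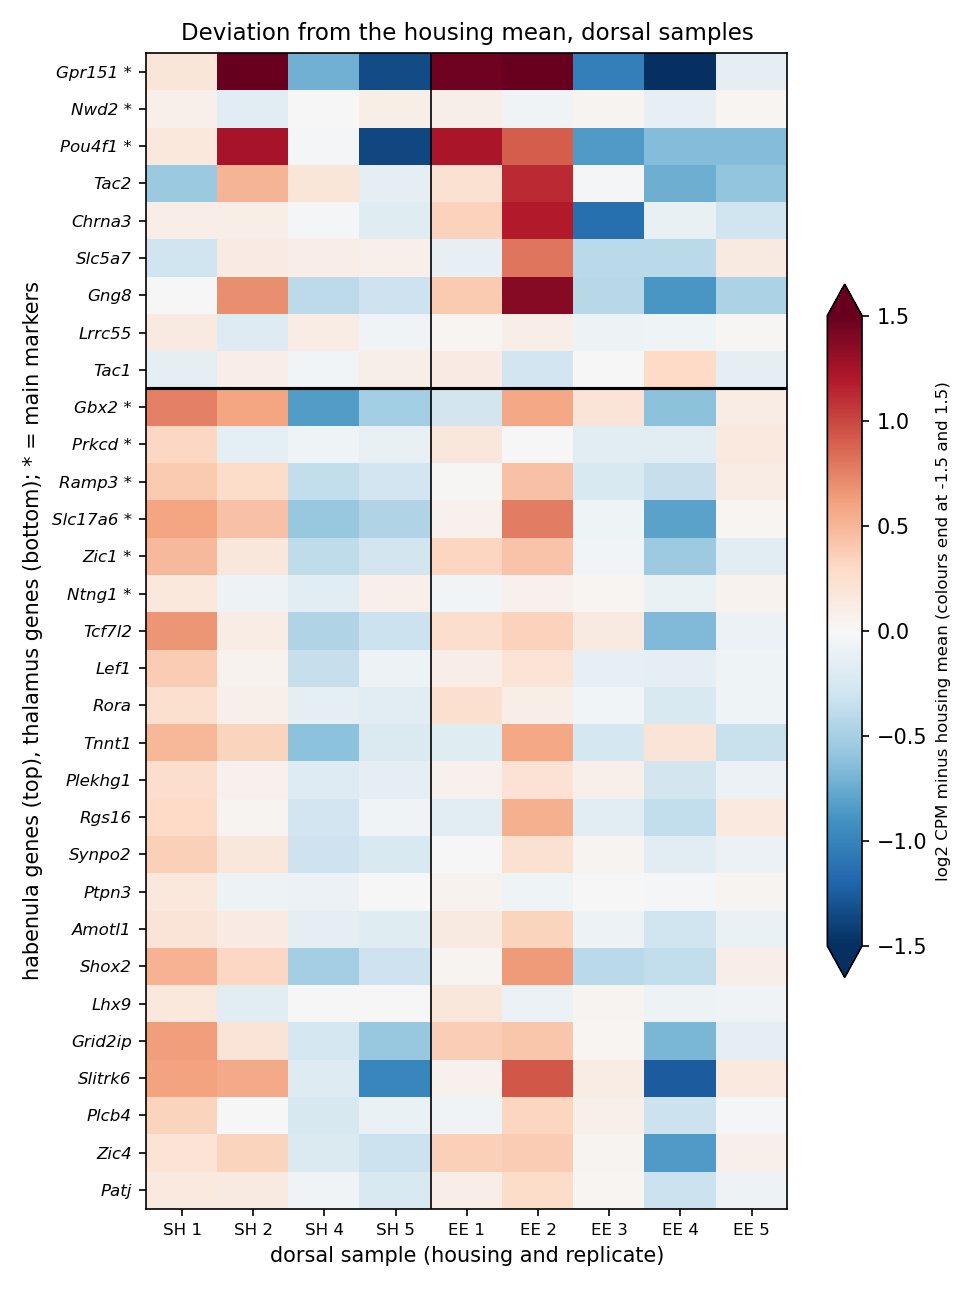
Deviation of each dorsal sample from its housing mean in log2 CPM (red above, blue below, colours ending at 1.5), for the tested habenula genes (top) and thalamus genes (bottom), with the 9 main markers starred. SH replicates 1 and 2 and EE replicate 2 lie above their housing mean over most thalamus rows, and EE replicate 4 lies below it. SH replicate 2 is often pale, as for *Plcb4* (0.01) and *Rgs16* (0.05). *Nwd2* and *Ntng1* stay pale, and *Prkcd* reaches 0.31 in SH replicate 1.

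Other genes known from the same nuclei were read beside the 9. Of 16 other thalamus genes, all tested, 6 were higher in dorsal DG, 1 was lower and 9 did not pass. Over all genes tested, 15.0% were higher and 15.9% were lower. The median log2 fold change was 0.24 for these 16 genes against -0.0046 over all genes tested. The largest differences were those of *Slitrk6*, at 0.97 (adjusted p = 0.0107 by edgeR), *Zic4* at 0.85 (adjusted p = 0.000178), *Shox2* at 0.77 (adjusted p = 0.00579) and *Plekhg1* at 0.54 (adjusted p = 4.06e-06). *Shox2*, a homeobox transcription factor, had 1.71 to 3.77 CPM in dorsal samples and 0.714 to 2.41 CPM in ventral ones. *Lhx9*, a LIM homeobox transcription factor named after its value was seen, was the gene that was lower (-0.41). Over the dorsal samples, 13 of these 16 genes had r over 0.8 with *Slc17a6*, against 2.01% of all genes tested, and their median was 0.91. *Slc17a6* was chosen for this reading after its values were seen.

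Of 10 other habenula genes, 6 could be tested. *Gng8*, a G protein gamma subunit, was higher in dorsal DG at 1.72 (SE 0.45, adjusted p = 0.00336 by edgeR), with 0.171 to 1.45 CPM in dorsal samples and 0.0365 to 0.362 CPM in ventral ones, and it passed the count filter only through its dorsal samples. *Lrrc55*, an auxiliary subunit of potassium channels, was higher at 1.43 (adjusted p = 3.28e-13 by edgeR), and *Tac1*, the precursor of substance P, was lower at -0.52 (adjusted p = 3.73e-05 by edgeR). The median over the 6 genes was -0.10. *Gng8* followed *Gpr151* over the dorsal samples (r = 0.90) and *Lrrc55* did not (r = 0.02). For EE against SH in dorsal DG, all 6 had values above 0 with a median of 0.68, against -0.0034 over all genes tested. *Lrrc55* at 0.38 was the one that passed (adjusted p = 0.0420 by edgeR), where 0.634% of all genes tested passed. *Gng8* at 1.21 (adjusted p = 0.409) and *Tac2* at 1.19 (adjusted p = 0.147) had larger values and did not pass. EE replicate 2 was the highest dorsal EE sample for *Gng8*, *Chrna3*, *Tac2* and *Slc5a7*. It lay 1.37, 1.19, 1.12 and 0.80 above the EE mean on the log2 scale, against 0.08 for *Lrrc55* and -0.29 for *Tac1*. The nicotinic receptor subunits *Chrnb3* (0 to 10 counts per sample) and *Chrnb4* (0 to 18) and the cholinergic genes *Chat* (0 to 6) and *Slc18a3* (0 to 3) fell under the count filter.

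The genes most like *Gpr151* over the 9 dorsal samples were *Zfas1* (r = 0.99), *Gm8707* (0.98), *Aspa* (0.97), *Camk2n2* (0.97) and *2010001A14Rik* (0.97). None of these 5 was higher in dorsal DG, with log2 fold changes of -1.06 to 0.00. The genes most like *Prkcd* were *Cpne9* (r = 0.97), *Chrm2* (0.95), *Terf2* (0.94), *Rag1* (0.94) and *Dusp3* (0.93), of which *Cpne9* had a log2 fold change of 1.58 and the others -0.27 to 0.20.

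Markers of other cell types moved with these genes between the dorsal samples. The 6 oligodendrocyte markers had a median r of 0.83 with *Gpr151* and 0.75 with *Slc17a6*, up to 0.95 for *Mbp* and *Mobp* with *Gpr151*. Their summed level was 1978 to 2833 CPM over dorsal samples and 1761 to 3059 CPM over ventral ones, and 0 of 6 differed between the regions. Granule cell markers had a median r of -0.67 with *Gpr151* (*Lct* -0.96) and -0.25 with *Slc17a6*, with a summed level of 1071 to 1265 CPM over dorsal samples and 475 to 712 CPM over ventral ones. CA pyramidal cell markers had a median r of -0.80 with *Prkcd*, but the list was split. *Wfs1* had r = -0.94, whereas *Iyd* had 0.52, *Amigo2* 0.15 and *Cabp7* 0.08. The median r of the list was 0.01 with *Gpr151* and -0.30 with *Slc17a6*. Of these 7 markers 3 were higher and 3 lower in dorsal DG, where 15.0% and 15.9% of all genes tested were. Their summed level was 547 to 711 CPM over dorsal samples and 578 to 835 CPM over ventral ones. The part of these cell types in the marker levels was not tested.

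Of 6 interneuron markers, 3 were lower in dorsal DG, led by *Sst* (-0.93) and *Vip* (-0.91), where 15.9% of all genes tested were lower. The median r of the interneuron markers with *Slc17a6* was -0.55. The summed interneuron level was 424 to 524 CPM over dorsal samples and 452 to 545 CPM over ventral ones. Of 8 meninges markers 4 were lower, led by *Dcn* (-1.27), with 63.8 to 90.9 CPM over dorsal samples and 95.5 to 125 CPM over ventral ones, and their median r was 0.65 with *Slc17a6* and 0.61 with *Gpr151*. Choroid plexus markers such as *Folr1* (-4.31) and *Ttr* (-4.10) and ependyma markers such as *Ccdc153* (-2.27) had the opposite direction to the habenula and thalamus markers. Their median r with *Slc17a6* over the dorsal samples was 0.60 for choroid plexus and 0.65 for ependyma.

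**Figure D4:**
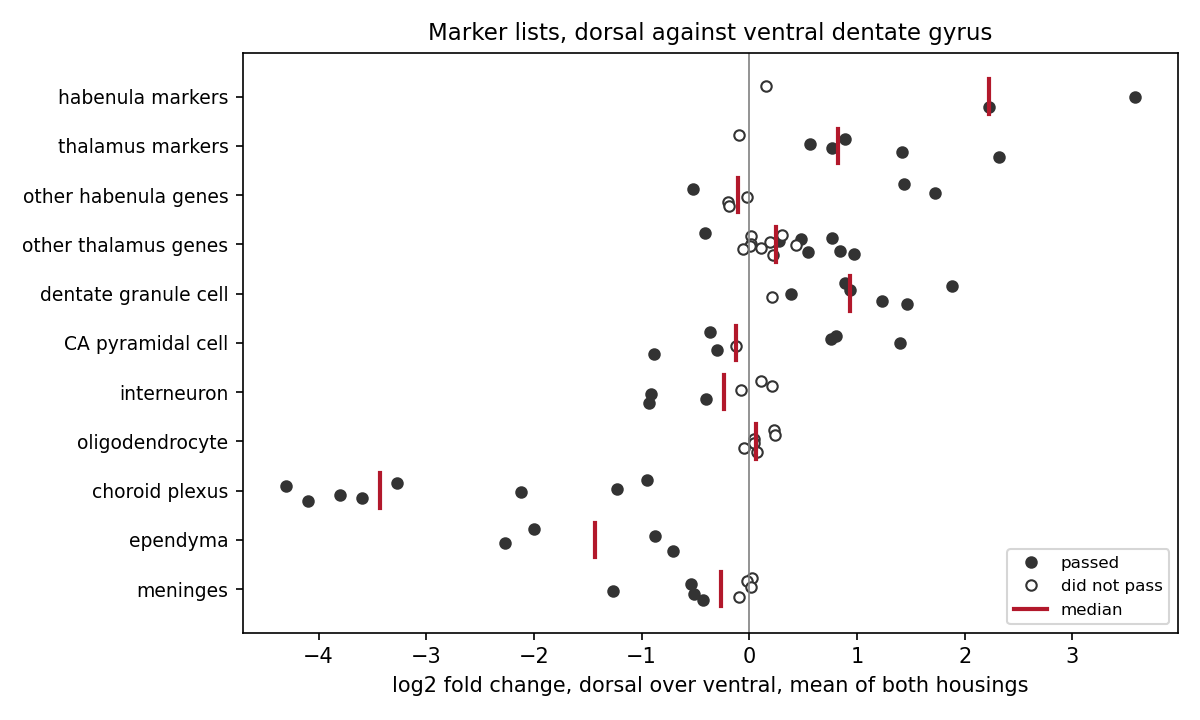
Log2 fold change of dorsal over ventral DG, mean of both housings, for each tested gene of each marker list. Filled points passed, open points did not, and red bars are list medians. The habenula and thalamus markers and the granule cell genes lie mostly to the right of 0, and the choroid plexus and ependyma genes lie to the left.

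A factor among these genes, POU4F1, is known to bind DNA at short AT-rich motifs, and their promoters were searched for it. RefSeq promoters (GRCm38.p6, 250 bases before to 50 after each start) were found for 8 of the 9 genes, all but *Gpr151*, in 10 windows. They were searched on both strands for ATTAAT and TAATGA, letters found in sites bound by POU4F proteins. One window, an alternative start of *Slc17a6* on chromosome 7, held both motifs, which are in capitals here.

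Slc17a6 ATTAAT, chr7:51624542-51624571, plus strand: agattgtgaatgATTAATtattcatgttgt
Slc17a6 TAATGA, chr7:51624520-51624549, plus strand: taactgagatagTAATGAcgcaagattgtg

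The motifs began 83 and 105 bases before that start and did not overlap each other. ATTAAT was in 4.75% and TAATGA in 9.78% of all 32851 promoters, against 1 of these 10 windows for each. A match is a description of letters, not a site. In GRCm38 (Gencode vM21), *Slc17a6* spans chr7:51622006-51671119 on the plus strand, *Prkcd* chr14:30595354-30626210 on the minus strand, *Pou4f1* chr14:104461676-104467999 on the minus strand and *Gpr151* chr18:42577881-42579652 on the minus strand. *Zic1* (chr9:91358058-91365810, minus) overlaps *Zic4* on the other strand, and counts were made by strand.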

How the data were processed

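The authors counted paired-end, strand-specific total RNA reads per gene with STAR, and TPM and expected counts were deposited beside the counts. The submitters' processing notes name Trim Galore 0.4.0, STAR 2.5.1b and RSEM 1.2.30 without their roles. The deposited counts of reads on the reverse strand were used here for 17040 genes with over 10 counts in at least 2 of 18 samples. Rows that name no gene held 32.6 to 40.9% of the fragments and were left out. Groups came from the sample titles, and 40 methylation samples were not used here. edgeR 4.0.16 (R 4.3.3) fitted 4 group means after TMM normalization, with a joint test of both housings for region. Standard errors were taken as the fold change on the log2 scale over the square root of F. For region over both housings this F came from the test of their mean, and the adjusted p from the joint test. The deposited TPM (scaled by the authors to one total per sample) gave the order of genes and served in alternatives, and expected counts, rounded, were an alternative. The test was checked on simulated counts. No replicates were duplicates (32 pairs).

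The study's legend joins dorsal and ventral samples of the same mice without numbers, the labels' replicate numbers were taken as these pools, and their deviations correlated at 0.0827 on average (9 pairs, 4 over 0.1). The markers, lists and tests were chosen with earlier results of these data known. All 9 markers were named, and up to 4 genes of each other list, those with the largest region difference, and the 5 genes most like *Gpr151* and *Prkcd* over dorsal samples. Alternatives changed the scaling, tool, filter, strand, samples and block, which was the pool for region tests and the replicate number for housing tests.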

Additional observations from a re-analysis of the deposited data

Results flagged for a closer look

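SH replicate 3, outside the group means, had more of 7 of the 9 markers in its dorsal sample than any other dorsal SH sample. It had 34.4 CPM of *Slc17a6*, 33.1 CPM of *Zic1*, 13.98 CPM of *Ramp3* and 56.4 CPM of *Ntng1*, each above all 9 dorsal samples used. It had 2.22 CPM of *Gpr151*, 0.738 CPM of *Pou4f1* and 0.608 CPM of *Gbx2*, each above the dorsal SH samples and below the highest dorsal EE sample. *Prkcd* at 99.4 CPM and *Nwd2* at 57.9 CPM lay within the dorsal SH range. The ventral sample of the same pool had 8.88 CPM of *Slc17a6* and 0 counts of *Pou4f1*.

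In a screen of 36 groups of 4 or 5 samples for a single sample far from the others, 2 stood out. Chance gives about 1 in 20 groups for normally distributed values, so 2 of 36 is near the chance rate. *Prkcd* in dorsal SH replicate 1 was at 100.3 CPM against 74.1 to 77.6 CPM in the other 3 samples. *Pou4f1* in ventral SH replicate 5 was at 0.0731 CPM, from 2 counts, against 0 counts in the other 3. The chance rate does not hold there, since any count beside 3 samples at 0 stands out under this rule.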

How the results depend on the processing

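Over both housings, 5 to 7 of the 9 markers were higher in dorsal DG under every alternative run, and *Prkcd*, *Ramp3*, *Zic1* and *Ntng1* passed in each. The counts include *Gpr151* and *Pou4f1*, which the main filter admitted only through dorsal samples, in each fit that tested them. A filter of TPM over 1 in 3 samples left *Gpr151*, *Pou4f1* and *Gbx2* untested. *Slc17a6* lost its SH call under 7 alternatives and gained an EE call under 2. Leaving out 1 pool gave 6 to 7 over both housings, 4 to 6 in SH, 6 to 7 in EE, and 0 in each fit for EE against SH in either region and for the interaction. Without EE replicates 1 and 2 the EE count was 3, and *Pou4f1* fell under the count filter. For EE against SH in dorsal DG, the count was 1 (*Gpr151*) without a count filter and 1 with the replicate block, where its adjusted p was 0.00536 by edgeR. SH and EE samples share only a number (deviations correlated over 0.1 in 7 of 8 pairs), and the replicate block changed no other housing call. Over all genes tested, 5266 differed between regions, against 3409 with the TPM filter, 3205 with limma on TPM and 8906 with no fold limit. For EE against SH, 108 genes in dorsal and 41 in ventral DG became 3 and 2 with limma on TPM, and 172 and 87 with the replicate block. The ventral count was 75 with DESeq2, 78 without a count filter and 26 with the TPM filter. Within a housing, limma on TPM gave 1790 region genes in SH against 4821, and 1875 in EE against 5086. The difference of *Gbx2* over both housings reversed to 0.27 with all 20 samples and 6.27e-05 with limma on log2(TPM + 0.1), to 0.0486 without EE replicate 3 and to 0.00895 without EE replicate 4, within -0.23 to 0.05 when 1 pool was left out. The correlation of summed markers was 0.90 on summed TPM, 0.67 with the 5 genes chosen later, and 0.15 to 0.63 when 1 dorsal sample was left out. The dorsal to ventral ratio of *Ntng1* was 1.84 in CPM and 2.20 in TPM, a move of more than 1 SD, and the cause was not tested. All other ratios moved by less than 1 SD, among them that of *Pou4f1*, which was 14.1 and 29.5 with a wide SD of 23.2. *Pou4f1*, *Gpr151* and *Gbx2* are limited by depth, with 0 to 105 counts per sample.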
